A study of Mus musculus with 4 samples.

Results

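The genes of the hypoxia-inducible factor (HIF) axis and of the glycolytic pathway it controls were examined in single nuclei from cortex of Gclc-KO mice. They are 10 of the 32285 genes in the count matrices, and all were found by their symbols: Hif1a, Epas1, Arnt, Egln1, Egln3, Vegfa, Flt1, Slc2a1, Hk2 and Ldha. In these mice a floxed Gclc gene, which encodes the catalytic subunit of the enzyme that starts glutathione synthesis, is deleted by Cre recombinase under the CaMKII promoter, and so in neurons. The study holds 2 libraries from mice aged 3 months (3M-1 and 3M-2) and 2 from mice aged 6 months (6M-1 and 6M-2), all of the same genotype and untreated. No wild-type library was analysed here, so each value below describes knockout cortex, and the cortical pieces had been taken where elongated, rod-shaped microglia were abundant.

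HIF is a transcription factor of 2 subunits, an oxygen-sensitive alpha subunit (encoded by Hif1a or Epas1) and a stable beta subunit (Arnt). While oxygen is present, prolyl hydroxylases, here Egln1 and Egln3, mark the alpha subunit for degradation, so that much of its control lies at the protein and not at the RNA. Among the genes it switches on are Vegfa, the main growth factor of blood vessels, its receptor Flt1, the glucose transporter Slc2a1, and the glycolytic enzymes Hk2 (hexokinase) and Ldha (lactate dehydrogenase). In the brain this programme is best known from endothelium and astrocytes under low oxygen, and in myeloid cells it accompanies inflammatory activation.

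Nuclei with at most 7000 detected genes and 1% mitochondrial UMIs (unique molecular identifiers, the molecules counted) were kept, 30515 of 30784. The libraries held 63429297 to 71255054 deposited UMIs, and any pair of them shared 12 to 19 cell barcodes. A nucleus was placed in a cell class where at least 3 of that class's 10 markers were detected and at least 2 times as many as of any other list; 20619 nuclei (67.57%) were placed. Nuclei that met this rule for microglia but had 2 or more of 5 macrophage markers were set apart as macrophages. Of the rest, those with 2 or more of 6 T cell markers were set apart as T cells. Both are among the nuclei placed. None of the 10 genes is among the markers. The classes held 9602 excitatory neurons, 2817 GABAergic neurons, 4560 oligodendrocytes, 942 oligodendrocyte precursors (OPC), 203 astrocytes (36 to 77 in a library) and 2352 microglia (433 to 797). UMIs were summed per library and class, and levels are given as CPM, the UMIs of a gene scaled to 1000000 UMIs of the class. Where 4 values follow each other, they are those of replicates 1 and 2 at 3 months and then of replicates 1 and 2 at 6 months. Gclc itself was counted at 33.5 to 42.9 CPM in excitatory neurons of the 4 libraries; with counting at the 3′ end of the RNA and no wild-type library, this does not measure the deletion.

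The promoters of the 3 members that differed between the microglial groups described below are shown, because HIF binds short core motifs in the genes it regulates. Each sequence is the 250 bases before the RefSeq transcription start (GRCm38.p6), 5′ to 3′ on the strand of the gene, and the capitals mark the letters ACGTG and GCGTG found on either strand.
Hif1a (chr12:73907617-73907866, forward strand): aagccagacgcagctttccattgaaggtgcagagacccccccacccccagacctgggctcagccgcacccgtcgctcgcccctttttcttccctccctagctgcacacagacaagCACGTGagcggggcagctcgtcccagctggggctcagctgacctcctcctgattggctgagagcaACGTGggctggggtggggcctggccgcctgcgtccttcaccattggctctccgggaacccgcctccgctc
Flt1 (chr5:147726012-147726261, reverse strand): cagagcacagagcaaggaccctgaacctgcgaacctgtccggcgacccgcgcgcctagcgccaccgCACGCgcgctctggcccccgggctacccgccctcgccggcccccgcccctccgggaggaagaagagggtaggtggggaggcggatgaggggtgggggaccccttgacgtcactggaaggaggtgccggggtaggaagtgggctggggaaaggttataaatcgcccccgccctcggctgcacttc
Slc2a1 (chr4:119108495-119108744, forward strand): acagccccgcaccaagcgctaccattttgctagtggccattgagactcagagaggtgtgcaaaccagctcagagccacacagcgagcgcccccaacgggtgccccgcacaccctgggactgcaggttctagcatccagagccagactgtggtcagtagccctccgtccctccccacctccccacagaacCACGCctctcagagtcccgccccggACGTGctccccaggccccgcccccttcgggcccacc

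The Hif1a window held ACGTG 3 times, counting its palindromic copy once on each strand, at 135, 134 and 70 bases before the start. The Slc2a1 window held ACGTG at 36 bases and GCGTG at 61 bases before the start, and the Flt1 window held GCGTG at 184 bases. A window was found for 9 of the 10 genes, all but Epas1, and 10 of their 11 windows held at least 1 match. The letters are short and common: of 32851 windows of the same length, 16.6% held ACGTG, 28.2% GCGTG and 38.6% either of them. Overlapping matches were counted separately, and a match is only a description of these letters.

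The 10 genes differed widely in where they were transcribed. In each class the sums were compared with the mean of the other 5 classes in the same mice (edgeR's quasi-likelihood test with the mouse as a block, Benjamini-Hochberg adjustment over 15456 genes). The fits rescale the sums by edgeR's TMM factors and the CPM do not, so a fold change need not follow the CPM. Of the 60 combinations of gene and class, 36 passed an adjusted p of 0.05, with 17 higher and 19 lower. Classes differ in most genes, so these counts stand against a high background: 62.1% of all genes tested were called for excitatory neurons, 54.9% for GABAergic neurons, 56.1% for oligodendrocytes, 29.3% for OPC, 31.2% for astrocytes and 54.0% for microglia.

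**Figure D1:**
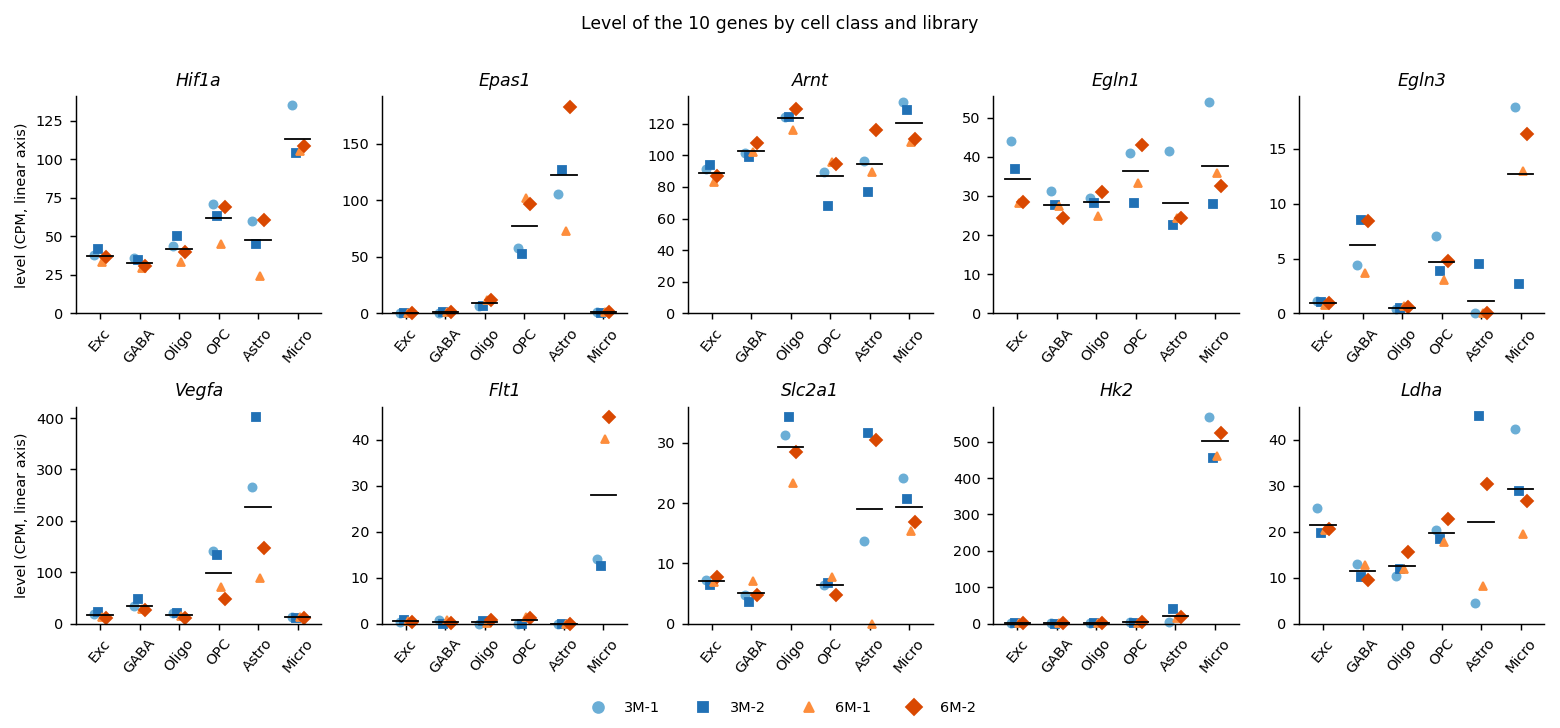
Level of each gene in CPM (linear axis) in excitatory neurons (Exc), GABAergic neurons (GABA), oligodendrocytes (Oligo), OPC, astrocytes (Astro) and microglia (Micro); each point is 1 library and the bar is the mean of 4. Hk2 and Flt1 stood high in microglia, Epas1 and Vegfa in astrocytes and OPC, and Arnt and Egln1 were spread over all classes.

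Of the 2 alpha subunits, Hif1a was found in each of the 6 classes and among them was highest in microglia. Its level there was 135, 104, 105 and 109 CPM, above every library of the other 5 classes. OPC came next with 62.0 ± 12.0 CPM (SD, n = 4 mice), and from OPC downwards the ranges of neighbouring classes overlapped, to 32.6 ± 3.07 CPM in GABAergic neurons. Against the mean of the other classes, microglia had a log2 fold change of 1.13 (SE 0.0865, adjusted p = 2.29e-12, edgeR's quasi-likelihood test).

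Epas1, the other alpha subunit, was highest among the 6 classes in astrocytes and OPC. Astrocytes had 106, 127, 73.0 and 183 CPM, and OPC had 58.3, 52.3, 102 and 96.7 CPM. The ranges of these 2 classes overlapped, and both lay above oligodendrocytes at 9.25 ± 3.13 CPM. Neurons and microglia were at the edge of detection, with 7 UMIs of Epas1 in 7082121 microglial UMIs. The log2 fold change over the mean of the other classes was 5.36 (SE 0.283) in astrocytes, 4.57 (SE 0.173) in OPC and 1.08 (SE 0.222) in oligodendrocytes, with adjusted p of 1.17e-15, 3.71e-19 and 1.44e-04 (edgeR's quasi-likelihood test).

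The partner Arnt and the oxygen sensor Egln1 had similar levels in all classes. Mean levels of Arnt ran only from 86.9 CPM in OPC (67.9 to 95.8) to 123 CPM in oligodendrocytes (116 to 129). The ranges of neighbouring classes overlapped, except between microglia and GABAergic neurons. Oligodendrocytes passed the test for Arnt, where the log2 fold change was 0.44 (SE 0.0763, adjusted p = 1.44e-05, edgeR's quasi-likelihood test). Arnt was also called lower in OPC (−0.32, SE 0.0928, adjusted p = 0.00935), but not without 3M-1 (−0.30, adjusted p = 0.0508) or without 3M-2 (−0.21, adjusted p = 0.137; edgeR's quasi-likelihood test). Egln1 lay between 27.7 ± 2.81 CPM in GABAergic neurons and 37.5 ± 11.4 CPM in microglia, and every class overlapped the next. It was called higher in excitatory neurons (0.42, SE 0.0944, adjusted p = 3.02e-04, edgeR's quasi-likelihood test). Their mean of 34.4 CPM lay below those of microglia and of OPC (36.3 CPM). Egln3, a hydroxylase that is itself induced by HIF, varied more between classes, from a mean of 0.542 CPM in oligodendrocytes to one of 12.7 CPM in microglia that spread from 2.70 CPM (3 UMIs) in 3M-2 to 18.8 in 3M-1. It was called higher in microglia (log2 fold change 2.56, adjusted p = 1.97e-07) and in GABAergic neurons (1.53, adjusted p = 2.80e-04) by edgeR's quasi-likelihood test.

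Among the ligand and receptor genes, Vegfa was highest in astrocytes, with 267 and 403 CPM at 3 months and 89.3 and 146 CPM at 6 months. OPC had 141, 133, 71.9 and 47.7 CPM, and the highest library of the other classes was 47.1 CPM, in GABAergic neurons. Vegfa was called higher in astrocytes (log2 fold change 3.00, SE 0.196, adjusted p = 1.73e-13) and in OPC (1.61, SE 0.134, adjusted p = 4.54e-11), and lower in microglia (−2.09, SE 0.189, adjusted p = 9.24e-11; edgeR's quasi-likelihood test).

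Flt1 showed the reverse. Microglia had 14.1, 12.6, 40.2 and 45.0 CPM, and the highest library of any other of the 6 classes had 1.55 CPM, in OPC. Astrocytes had 0 UMIs of Flt1 in 726059, and against the limit of 3 UMIs that such a count allows (4.13 CPM over the 4 libraries) the pooled microglial level of 31.8 CPM was at least 7.69-fold higher. Summed over the other 5 classes there were 71 UMIs of Flt1, or 0.482 CPM, a ratio of 65.9 (95% exact interval 50.3 to 87.4, for counting error only).

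Among the metabolic genes, Hk2 was the most restricted over the 6 classes. Microglia had 568, 454, 462 and 525 CPM, and the highest library of any other of the 6 classes was 40.7 CPM, in astrocytes of 3M-2. Pooled over libraries, 3548 UMIs of Hk2 fell in microglia and 132 in the other 5 classes, a ratio of 559 (470 to 671). The log2 fold change was 7.58 in microglia (SE 0.107, adjusted p = 8.08e-30) and 2.18 in astrocytes (SE 0.504, adjusted p = 0.00103; edgeR's quasi-likelihood test). The astrocyte call rested on 3M-2, without which the log2 fold change was 1.15 (adjusted p = 0.214).

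Among the 6 classes Slc2a1 was highest in oligodendrocytes, with 29.4 ± 4.65 CPM, and overlapped there with microglia at 19.3 ± 3.97 CPM. Its log2 fold change in oligodendrocytes was 1.65 (SE 0.163, adjusted p = 5.87e-10, edgeR's quasi-likelihood test). Ldha was spread over the classes, from 29.3 ± 9.57 CPM in microglia to 11.4 ± 1.74 CPM in GABAergic neurons. Ldha was called higher in excitatory neurons, at 21.5 ± 2.52 CPM (0.56, SE 0.128, adjusted p = 3.95e-04, edgeR's quasi-likelihood test). Both genes also passed in microglia (Slc2a1 0.53, adjusted p = 0.0282, and Ldha 0.46, adjusted p = 0.0263, edgeR's quasi-likelihood test). Neither microglial call held without 3M-1, where the values were 0.36 (adjusted p = 0.234) and 0.17 (adjusted p = 0.470).

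Blood vessel cells were too rare for a test. The 19 endothelial nuclei, 0 to 12 in a library, held 30005 UMIs and were pooled. They had 160 UMIs of Flt1, or 5332 CPM (95% exact Poisson interval 4538 to 6226), 41 of Slc2a1 (1366 CPM, 981 to 1854) and 23 of Epas1 (767 CPM, 486 to 1150). These are the genes for which brain endothelium is known, and all 3 stood above the levels of the larger classes, while Hk2 had 0 UMIs, which allows up to 123 CPM. Hif1a had 4 UMIs there, or 133 CPM (36.3 to 341), an interval that holds the microglial levels. The 55 mural nuclei had 407 CPM of Flt1 (291 to 554) and 234 CPM of Epas1 (148 to 351). The 33 nuclei gated as macrophages had 393 CPM of Hk2 (274 to 547), which overlaps the microglial range of 454 to 568 CPM. All these intervals cover counting error only.

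To compare microglial states within a mouse, microglia were split by 7 genes of disease-associated microglia (DAM): Lpl, Lilrb4a, Igf1, Ccl3, Ccl4, Csf1 and Myo1e. Nuclei with 3 or more of them detected were called DAM-gated (58, 39, 90 and 69), those with 0 or 1 low (386, 364, 589 and 495), and the 262 nuclei with 2 were left out of this comparison. The gate genes themselves are no finding between these groups, and the sums held 151348 to 370982 UMIs in DAM-gated and 858881 to 1638626 UMIs in low microglia.

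Hif1a, Flt1 and Slc2a1 rose in DAM-gated microglia, in each of the 4 mice. The share of all genes with the same direction in every mouse, or without overlap of the groups, was not counted. Statements of this kind below therefore only describe the values. Hif1a was at 292, 278, 170 and 213 CPM in DAM-gated microglia. In low microglia of the same mice it was at 80.6, 66.4, 83.6 and 79.6 CPM. The groups did not overlap, and the low microglia varied little between mice while the DAM-gated microglia of both 3-month mice lay above those of both 6-month mice. This gave a log2 fold change of 1.54 (SE 0.171, adjusted p = 8.58e-06, edgeR's quasi-likelihood test over 9320 genes, with the mouse as a block). The study had already reported raised Hif1a in its DAM-like microglial subcluster from these same libraries. By in situ hybridization on brain sections of 3-month knockout mice, it also reported more Hif1a-positive cells among rod-shaped microglia. The gene and the gate were chosen with such results known, so the rise of Hif1a in DAM-gated microglia is no independent finding.

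Flt1, the receptor, showed the widest gap. It was at 70.7, 46.3, 146 and 159 CPM in DAM-gated microglia, and at 2.75, 2.33, 19.5 and 27.0 CPM in low microglia. The groups did not overlap, although the low microglia at 3 months rest on 3 and 2 UMIs. Its log2 fold change was 3.00 (SE 0.277, adjusted p = 1.37e-06, edgeR's quasi-likelihood test). Pooled over the mice of an age, the ratio was 23.6 (95% exact counting interval 8.73 to 79.8) at 3 months and 6.56 (4.80 to 9.00) at 6 months.

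Slc2a1, the glucose transporter, was at 33.0, 46.3, 40.4 and 53.1 CPM in DAM-gated and at 22.0, 14.0, 11.0 and 11.2 CPM in low microglia. The ranges were separate, but the sums are small, with 7 to 15 UMIs in DAM-gated microglia. The log2 fold change was 1.63 (SE 0.344, adjusted p = 0.00543, edgeR's quasi-likelihood test), and it missed the threshold without 6M-2 (1.39, adjusted p = 0.0584).

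**Figure D2:**
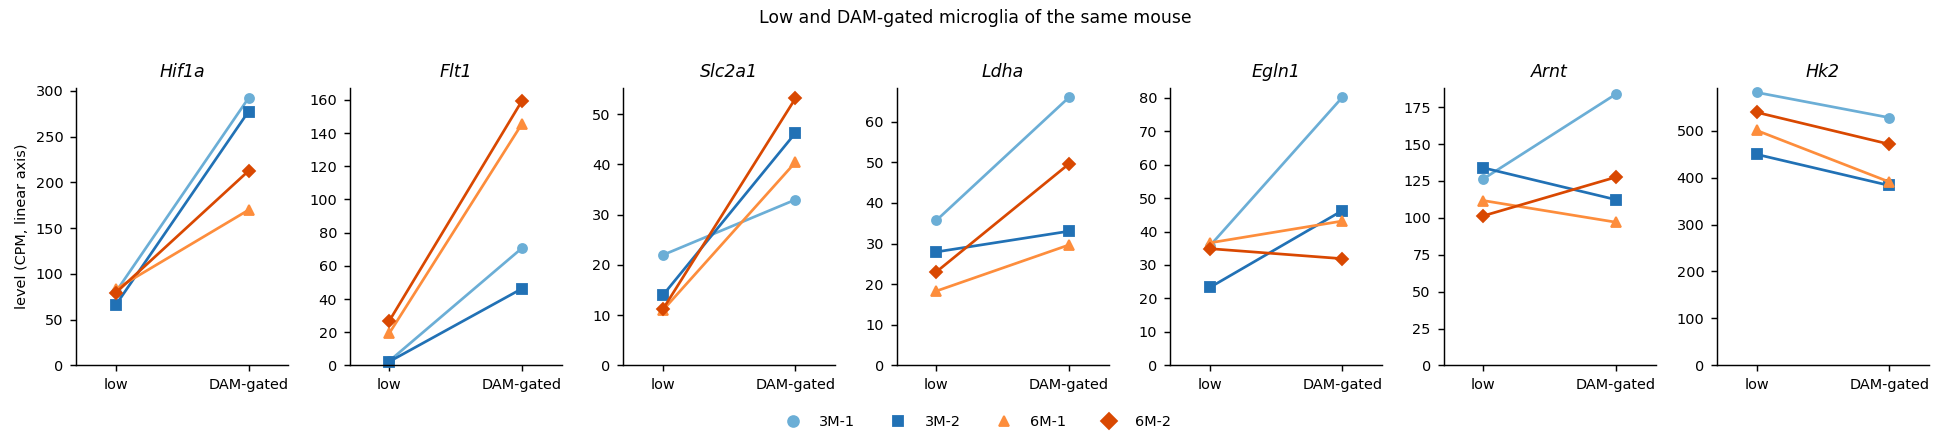
Level in CPM (linear axis) of the 7 members with enough UMIs for the test, in low and DAM-gated microglia; a line joins the 2 values of a mouse. Hif1a, Flt1 and Slc2a1 were higher in DAM-gated microglia of all 4 mice, and Hk2 was lower in all 4, a direction that turned in the alternative with thinned nuclei and 2 or more gate genes against 0.

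The other members did not pass. Hk2, the member most restricted to microglia among the 6 classes, was at 528, 383, 391 and 471 CPM in DAM-gated and 581, 449, 500 and 539 CPM in low microglia (log2 fold change −0.24, SE 0.121, adjusted p = 0.352, edgeR's quasi-likelihood test). After thinning to 1000 UMIs with 2 or more gate genes against 0, its log2 fold change turned to 0.070. Ldha was above the low microglia in 4 of 4 mice, with 66.0, 33.0, 29.7 and 49.6 against 35.7, 27.9, 18.3 and 23.0 CPM, and its groups overlapped (0.78, SE 0.280, adjusted p = 0.128). Egln1 (0.52, SE 0.276, adjusted p = 0.392) and Arnt (0.12, SE 0.171, adjusted p = 0.822) differed by less still. Epas1, Egln3 and Vegfa had too few UMIs for the fit, with 1, 24 and 13 UMIs in DAM-gated and 6, 60 and 61 in low microglia; Egln3 was at 23.2 ± 14.9 against 10.8 ± 5.74 CPM and Vegfa at 12.9 ± 1.54 against 11.6 ± 2.09 CPM (SD, n = 4 mice). Among all 9320 genes tested 5.63% were called and 3.09% were called higher, against 3 of the 7 members tested, all 3 higher. The filter on low counts keeps genes that are high enough in 1 group alone. Flt1 and Slc2a1 passed it through their DAM-gated levels, so the share of members called follows in part from the filter. The same filter applies to the lists below.

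Several measurements were set beside these differences. The UMIs did not come from a few nuclei: in DAM-gated microglia, Hif1a was found in 131 of 256 nuclei with at most 8 UMIs in 1 of them, Flt1 in 65 with at most 7, and Slc2a1 in 42 with at most 2. The 10 endothelial markers summed to 0 to 18.8 CPM in DAM-gated and 9.21 to 41.9 CPM in low microglia. Of the 10, 7 were at 0 in DAM-gated microglia, whose sums are smaller. Only Cldn5 was at 0 in low microglia as well. Pecam1 gave most of the sum in low microglia (33.9, 32.6, 11.0 and 6.58 CPM). Cdh5 went the other way, at 4.71, 0, 2.70 and 3.54 CPM in DAM-gated and 0, 1.16, 0 and 0 in low microglia. Each of these Cdh5 values rests on at most 1 UMI. The 5 macrophage markers summed to at most 5.39 CPM in DAM-gated microglia. Low sums of these lists follow in part from the gate. It required at least 2 times as many microglial markers as of any other list of 10, and took out nuclei with 2 or more macrophage markers. These sums therefore cannot show how much RNA of other cells the nuclei held. The GABAergic list reached 1445 CPM in DAM-gated microglia of 6M-2, of which Adarb2 gave 1286, against 170 to 344 CPM in the other 3 libraries. With the nuclei that Scrublet calls doublets left out, all 3 genes still passed, at 1.68 for Hif1a, 3.04 for Flt1 and 1.61 for Slc2a1.

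Depth differed as well, with a median of 2336 to 2791 UMIs per DAM-gated nucleus and 1522 to 2184 per low nucleus. Microglial nuclei with at least 1000 UMIs were thinned to 1000 UMIs and split at 2 or more gate genes against 0. The shallower ones, 27, 82, 33 and 8 nuclei, were left out. Hif1a was then at a log2 fold change of 1.71 (adjusted p = 4.26e-07) and Flt1 at 3.36 (adjusted p = 4.33e-07, edgeR's quasi-likelihood test). Slc2a1 had too few UMIs in this setting. On chromosome 12 (GRCm38), Hif1a (ENSMUSG00000021109, forward strand, 73901375 to 73947530) lies within the span of the antisense gene Gm15283 (ENSMUSG00000087700, reverse strand, 73843039 to 73949814). Gm15283 was at 528, 733, 364 and 418 CPM in DAM-gated and 135, 197, 165 and 178 CPM in low microglia, a log2 fold change of 1.54 (SE 0.152, adjusted p = 2.77e-06, edgeR's quasi-likelihood test). The sources used here do not state whether the counting used strand, and without it the reads of these 2 genes cannot be told apart. Of the genes overlapping the other members, Gm17034 within Hk2 had 21 microglial UMIs, and Gm12867 and Gm12868 within Slc2a1 had 1 each.

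The levels were also read along the number of gate genes. Pooled over the libraries, Hif1a was at 70.8 CPM in microglia with 0 gate genes, 92.5 with 1, 174 with 2, 202 with 3 and 243 with 4 or more. Flt1 was at 9.32, 25.4, 27.2, 78.2 and 156 CPM over the same steps, and Slc2a1 at 13.7, 14.3, 16.7, 37.1 and 49.0 CPM. Hk2 had its highest level, 565 CPM, with 0 gate genes and stayed between 431 and 460 CPM at the other steps. Single libraries did not follow each step. From 2 to 3 gate genes Hif1a went from 167 to 150 CPM in 3M-2 and from 131 to 113 CPM in 6M-1, and from 3 to 4 or more from 448 to 220 CPM in 3M-1 and from 223 to 199 CPM in 6M-2. These steps were not tested.

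**Figure D3:**
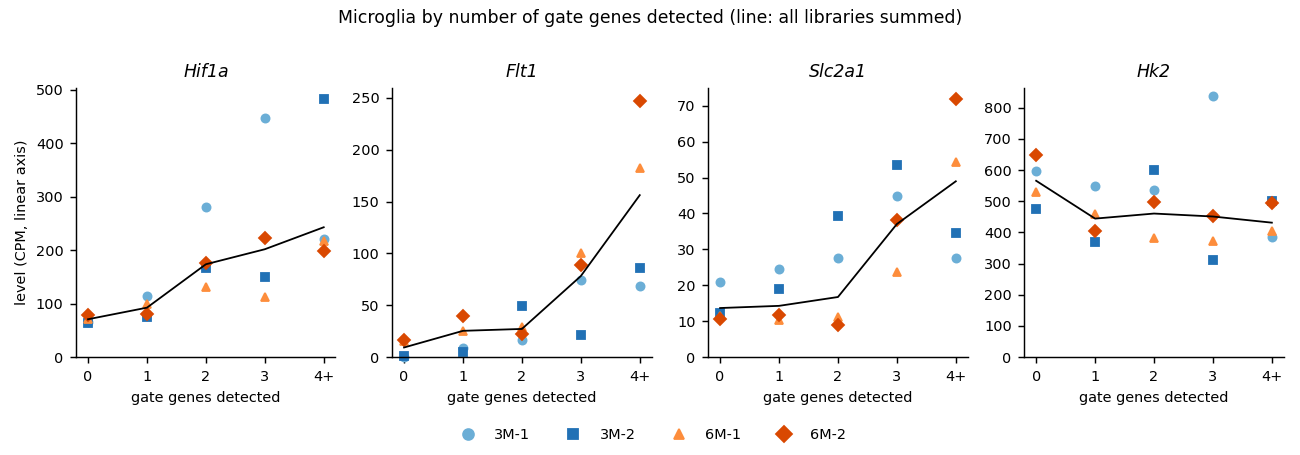
Level in CPM (linear axis) of Hif1a, Flt1, Slc2a1 and Hk2 in microglia by the number of the 7 gate genes detected; points are libraries and the line joins the values of all libraries summed. The summed levels of Hif1a, Flt1 and Slc2a1 were higher at each further step and that of Hk2 was highest at 0, while single libraries did not follow each step.

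The wider pathway was read from 4 lists. Of 22 genes of glycolysis and lactate transport, 19 were tested between DAM-gated and low microglia and 4 rose: Pgk1 (phosphoglycerate kinase, log2 fold change 1.26, SE 0.313), Pfkl (liver phosphofructokinase, 0.79, SE 0.229), Pfkfb3, which makes the activator of phosphofructokinase (0.70, SE 0.167), and Pkm (pyruvate kinase, 0.70, SE 0.200), with adjusted p of 0.0181, 0.0462, 0.0133 and 0.0457 (edgeR's quasi-likelihood test). Of all 9320 genes tested, 3.09% were called higher. The median log2 fold change of the list was 0.18, against 0.00 for all genes tested. Pkm and Pfkl lay close to the threshold and passed it in 3 of the 14 and 3 of the 13 alternatives that could be fitted, Pfkfb3 in 10 of 14 and Pgk1 in 8 of 13. Leaving out 1 library ended the call of Pfkl whichever it was (adjusted p = 0.0883 to 0.200). It ended that of Pkm for any but 3M-1 (0.174 to 0.206), that of Pfkfb3 for any but 6M-2 (0.0615 to 0.0839) and that of Pgk1 for any but 6M-1 (0.0678 to 0.112, edgeR's quasi-likelihood test).

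Pgk1 was at 42.4, 39.6, 37.7 and 53.1 CPM in DAM-gated and 10.1, 18.6, 22.0 and 19.7 CPM in low microglia, without overlap. In the list of other VEGF ligands and receptors, 2 of 4 tested genes rose, the co-receptors Nrp1 (0.84, SE 0.141, adjusted p = 7.12e-04) and Nrp2 (0.96, SE 0.155, adjusted p = 4.50e-04; edgeR's quasi-likelihood test). Both also passed in all 14 alternatives. Nrp1 was at 415, 251, 361 and 358 CPM in DAM-gated and 177, 129, 233 and 228 CPM in low microglia. Of the other hypoxia-induced genes 1 of 10 tested rose, Bhlhe40, a transcriptional repressor (1.49, SE 0.396, adjusted p = 0.0287, edgeR's quasi-likelihood test), and of the genes of oxygen sensing and HIF partners 0 of 5 did. Bhlhe40 passed in 6 of 12 alternatives, and of the fits without 1 library only in that without 3M-1 (adjusted p = 0.0702 to 0.141 in the others). No gene of the 4 lists passed as lower. The 3.09% of all genes called higher is the background for each of these lists. DESeq2 called 2 of the 38 pathway genes tested, Nrp1 and Nrp2, and so no glycolytic gene. Of the 38, edgeR called 7, and 12 were at an unadjusted p under 0.05, against 1479 of all 9320 genes.

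Across classes, the pathway genes of microglia were split in both directions. Of the 22 glycolytic genes 7 were called higher and 7 lower than the mean of the other classes, of the other hypoxia-induced genes 4 and 3 of 14 tested, of the VEGF list 2 and 1 of 6, and of the oxygen-sensing list 4 and 2 of 8. Of all 15456 genes tested, 54.0% were called in microglia, 4227 higher and 4113 lower. A split in both directions is therefore the background and no trait of these lists. The calls with the smallest adjusted p included Hk3, another hexokinase (log2 fold change 7.85, SE 0.332), Pdk1, the kinase that shuts off pyruvate dehydrogenase (1.90, SE 0.0904), Pfkfb3 (2.12, SE 0.136), the lipid-droplet gene Plin2 (3.28, SE 0.224), the collagen hydroxylase P4ha1 (1.10, SE 0.0923), Ccng2 (2.60, SE 0.225) and Nrp1 (1.97, SE 0.107). The neuronal HIF partner Arnt2 was lower (−1.74, SE 0.121). The highest adjusted p of these 8 was 3.20e-11 (edgeR's quasi-likelihood test).

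The next question was whether the gate difference depended on age. No member passed the test of the interaction (8 tested, 2 at an unadjusted p under 0.05, 0 called with DESeq2). Of all 10443 genes, 0.00958% were called and 573 were at an unadjusted p under 0.05. Hif1a had a log2 change of the DAM-gated difference of −0.72 at 6 against 3 months (SE 0.296, unadjusted p = 0.0250, adjusted p = 0.888), and Flt1 one of −1.72 (SE 0.660, unadjusted p = 0.0166, adjusted p = 0.856; edgeR's quasi-likelihood test). For both, the ratio of DAM-gated to low microglia was lower in each 6-month mouse than in each 3-month mouse. The share of all genes whose ratio separated in this way was not counted, so this only describes the values. For levels by class, which are not such ratios, 16.4% of the combinations of gene and class with at least 40 UMIs lay wholly lower at 6 months. Gm15283, which overlaps Hif1a, had log2 ratios of DAM-gated to low microglia of 1.97 and 1.90 at 3 months. At 6 months they were 1.14 and 1.23 (interaction −0.74, unadjusted p = 0.00708, adjusted p = 0.807, edgeR's quasi-likelihood test). The pathway lists also had 0 of 44 genes called in the interaction (1 at an unadjusted p under 0.05, 0 with DESeq2).

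The ages were then compared in the 6 classes and in DAM-gated and low microglia, with 2 mice against 2. None of the 58 member values passed (edgeR's quasi-likelihood test, 11 at an unadjusted p under 0.05, 0 with DESeq2, lowest adjusted p = 0.109). Few genes of any kind did: 0.0155% of those tested in microglia, 0.0331% in low microglia, 0.00898% in OPC and 0 in the other 5 fits. At an unadjusted p under 0.05 were 995 of 18008 genes in excitatory neurons, 631 of 14839 in GABAergic neurons and 670 of 13104 in oligodendrocytes. It was 398 of 11134 in OPC, 174 of 3959 in astrocytes and 920 of 12879 in microglia. DAM-gated microglia had 289 of 5670 and low microglia 864 of 12071. The 58 values share mice, and the microglial groups share nuclei with all microglia. The labels give the 2 libraries of an age different batch numbers, but do not say what a batch is or name litters or days. These p-values set the age difference only against the spread between the 2 mice of an age, which edgeR moderates with the other genes.

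Flt1 had the lowest adjusted p. Microglia had 21 and 14 UMIs of Flt1 at 3 months and 99 and 91 at 6 months, that is 14.1 and 12.6 against 40.2 and 45.0 CPM. The ages did not overlap, which held for 18.3% of the 12709 genes with at least 40 microglial UMIs in the upward direction. The fit gave a log2 fold change of 1.66 (SE 0.275, adjusted p = 0.198). In low microglia it was 3.13 (SE 0.538, adjusted p = 0.109), from 5 UMIs at 3 months and 73 at 6 months, a ratio of 9.02 with a 95% exact counting interval of 3.69 to 28.6. In DAM-gated microglia it was 1.35 (SE 0.344, adjusted p = 0.802; edgeR's quasi-likelihood test), from 22 and 99 UMIs, a ratio of 2.50 (1.57 to 4.18).

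With the replicate number, which the labels give as a batch, as a block, Flt1 passed in microglia (1.66, adjusted p = 0.00190) and in low microglia (3.11, adjusted p = 0.0296, edgeR's quasi-likelihood test). With the replicate numbers crossed, an alternative added after seeing the data, 0 to 50 genes passed over the 8 age fits. Flt1 passed there too, in microglia (1.67, adjusted p = 0.00832) and in low microglia (3.15, adjusted p = 0.0445, edgeR's quasi-likelihood test). It also passed in microglia without 3M-1 (1.77, adjusted p = 0.0392) and without 3M-2 (1.56, adjusted p = 7.29e-04), and in low microglia without 3M-1 (3.27), 3M-2 (3.01) and 6M-1 (3.34), with adjusted p of 0.00295, 0.00180 and 0.0242 (edgeR's quasi-likelihood test). Where a mouse is left out, the single mouse of its age is assumed to vary like the others. These settings call more genes of every kind: over the 8 age fits 3 to 66 genes passed with the block, 4 to 209 without 3M-1, 25 to 1312 without 3M-2 and 1 to 17 without 6M-1, against 0 to 4 with all mice and no block. The direction was upward in all alternatives, 1.52 to 1.86 in microglia and 2.89 to 3.84 in low microglia.

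**Figure D4:**
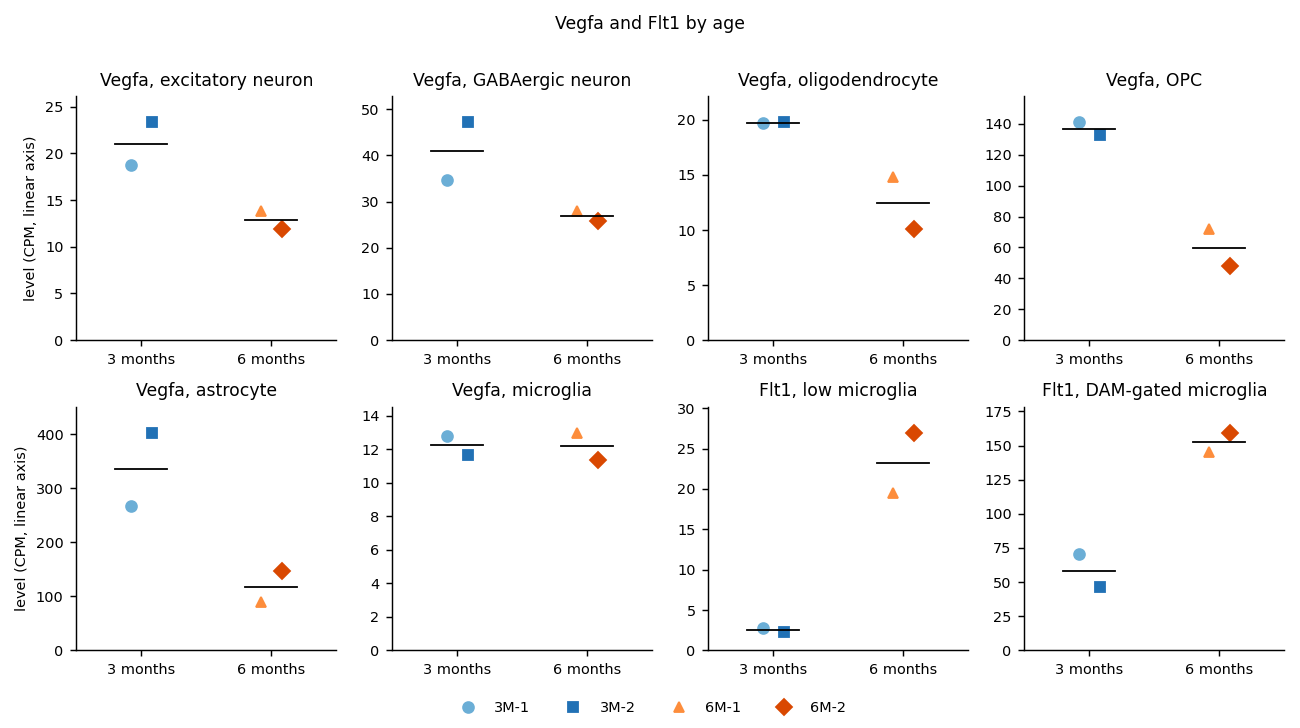
Vegfa in 6 classes and Flt1 in low and DAM-gated microglia, in CPM (linear axes that differ between panels), at 3 and 6 months; points are libraries and bars are means of 2. Vegfa lay lower at 6 months in the 5 classes other than microglia, and Flt1 lay higher in both microglial groups.

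Vegfa was lower at 6 months in astrocytes (89.3 and 146 against 267 and 403 CPM) and in OPC (71.9 and 47.7 against 141 and 133 CPM). It was also lower in excitatory neurons (13.8 and 11.9 against 18.7 and 23.3 CPM), in GABAergic neurons (27.9 and 25.8 against 34.6 and 47.1 CPM) and in oligodendrocytes (14.8 and 10.1 against 19.7 and 19.8 CPM). In none of these 5 classes did the ages overlap, whereas in microglia they did, with all 4 libraries between 11.4 and 13 CPM. The same complete downward separation was seen for 15.8% of genes with at least 40 UMIs in astrocytes, 17.2% in OPC, 16.8% in excitatory neurons, 17.9% in GABAergic neurons and 12.0% in oligodendrocytes. It was seen in all 5 classes at once for 17 of the 3331 genes with at least 40 UMIs in each, or 0.51%. This way of counting was chosen after the values of Vegfa had been seen, and the same 4 mice stand behind every class.

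The log2 fold change of Vegfa was −1.52 in astrocytes (SE 0.373, adjusted p = 0.338), −1.14 in OPC (SE 0.236, adjusted p = 0.390), −0.74 in oligodendrocytes (SE 0.292, adjusted p = 0.903), −0.72 in excitatory neurons (SE 0.193, adjusted p = 0.844) and −0.59 in GABAergic neurons (SE 0.195, adjusted p = 0.957; edgeR's quasi-likelihood test). With the replicate block it passed in astrocytes (−1.55, adjusted p = 0.0150), but not with the replicate numbers crossed (−1.49, adjusted p = 0.414). In OPC it passed with the crossed block (−1.17, adjusted p = 0.00202), an alternative chosen after seeing the data, and without a filter on low counts (−1.18, adjusted p = 0.00515; edgeR's quasi-likelihood test). It also passed in astrocytes without 3M-1 (−1.79, adjusted p = 0.00244) and without 6M-2 (−1.98, adjusted p = 0.0459), in OPC without 3M-1 (−1.10, adjusted p = 0.0335) and without 3M-2 (−1.19, adjusted p = 0.00148), and in excitatory neurons without 3M-1 (−0.83, adjusted p = 0.0299; edgeR's quasi-likelihood test). All alternatives in these 5 classes kept the downward direction. The astrocyte sums held 58, 89, 11 and 24 UMIs of Vegfa, so these levels are the least precise.

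The other members did not pass between the ages with all mice either. Epas1 was higher at 6 months in OPC, at 102 and 96.7 against 58.3 and 52.3 CPM (log2 fold change 0.86, SE 0.220, adjusted p = 0.999), and in oligodendrocytes, at 12.2 and 11.8 against 6.33 and 6.76 CPM (0.78, SE 0.317, adjusted p = 0.903; edgeR's quasi-likelihood test). The ages did not overlap in either class, which held in the upward direction for 14.7% of genes with at least 40 UMIs in OPC and 24.1% in oligodendrocytes, and in astrocytes Epas1 overlapped. Hif1a in DAM-gated microglia was at 170 and 213 CPM at 6 months and 292 and 278 at 3 months (−0.58, SE 0.284, adjusted p = 0.933), while in low microglia its ages overlapped. Without 3M-2, where 6.62% of all genes tested were called in excitatory neurons and 9.49% in microglia, 2 further values passed: Egln1 in excitatory neurons (−0.70, adjusted p = 0.0102, against −0.54 and 0.877 with all mice) and Ldha in microglia (−0.91, adjusted p = 0.0307, against −0.64 and 0.714; edgeR's quasi-likelihood test). Of the 41 combinations of gene and class with at least 40 UMIs, 16 lay wholly lower at 6 months, 7 wholly higher, and 18 overlapped. Over all genes 16.4% of such combinations lay wholly lower and 18.4% wholly higher, and the 5 values of Vegfa, known before this count was made, are among the 16. The pathway lists gave 333 values over the 8 age fits, of which 0 were called (14 at an unadjusted p under 0.05, 0 with DESeq2).

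Finally, the genes whose levels ran most like those of the members were sought over the 24 sums of 6 classes and 4 libraries, as Pearson's r of log2(CPM + 1). These sums share mice and fall into classes, so r describes mostly the class pattern. Hif1a ran closest to Rbm26 (r = 0.956), Msl1 (0.943) and Slc35d2 (0.927). Hk2 ran closest to Gdi2 (0.966), Trim30a (0.961) and Psmb9 (0.958), and Flt1 to H2-Q6 (0.986), Cd22 (0.984) and Zfp993 (0.982). Of these, Cd22 is a known lectin of microglia and B cells, and Psmb9 and H2-Q6 belong to antigen presentation. Epas1 ran closest to Cyp2j9 (0.981), Asrgl1 (0.980) and Scrg1 (0.979), and Vegfa to C230035I16Rik (0.942), Dpf3 (0.935) and Mro (0.931). For Arnt, Egln1, Egln3, Slc2a1 and Ldha the closest genes, Zbtb7b, Trmt6, Nectin4, Txlna and Sptbn5, reached r of 0.858, 0.821, 0.867, 0.924 and 0.830.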

How the data were processed

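Single-nucleus libraries (10x Genomics 3′ chemistry, nuclei sorted for DAPI) were made from the cortex of 4 mice. Per the file headers, the deposited values are raw UMI counts per gene and nucleus from Cell Ranger 7.0.0, without normalization; the submitters' processing notes name the mm10 build and Seurat. Whether antisense reads were counted is not given in the sources used here. The features and barcodes that accompany the counts were deposited as names without values.

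UMIs were summed per library and class (at least 10 nuclei). The sums were tested with edgeR 4.0.16 (TMM, filterByExpr, quasi-likelihood test) in R 4.3.3, with Benjamini-Hochberg adjustment over all genes tested and a threshold of 0.05. The SE given with an edgeR fold change is its absolute value divided by the square root of the F statistic, not a standard error fitted by the model. The mouse was a block between classes and microglial groups, and the ages were compared without a block. Alternatives were DESeq2 1.42.0, its size factors, no filter on low counts, a stricter marker gate (at least 4 markers and 3 times as many as of any other list), Scrublet doublets left out (scanpy 1.11.5), all deposited nuclei, other gate limits, thinning to 1000 UMIs, the block added or removed, and each library left out. In the labels the batch (1 or 2) matches the replicate number at each age, which is where the pairing comes from; the differences between replicates at the 2 ages correlated at −0.141 in excitatory neurons, −0.141 in oligodendrocytes, −0.114 in microglia and −0.0676 to −8.10e-04 in the other groups. Where a symbol had 2 rows (Aldoa), the first was used. Locations are from GENCODE M21 (GRCm38) and promoters from RefSeq (GRCm38.p6).

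The 10 genes, the gate and the lists were chosen with earlier results of these data known. Named genes were the 10 members, genes overlapping them, up to 8 called pathway genes in each comparison by adjusted p, and the 3 genes most alike in level. Intervals are at 95%, and UMI depth sets their width.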

Additional observations from a re-analysis of the deposited data

How the results depend on the processing

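Between DAM-gated and low microglia, 3 members passed, and 2 to 3 did so when a library was left out. Hif1a and Flt1 passed under all 14 alternatives (log2 fold change 1.40 to 1.73 and 2.81 to 3.47) and Slc2a1 under 12 of the 13 that could be fitted (1.21 to 1.97). Below the threshold, Arnt (0.12) lay between −0.020 (without 3M-1) and 0.22 when a library was left out, and Hk2 (−0.24) turned to 0.070 with nuclei thinned to 1000 UMIs and 2 or more gate genes set against 0. The count of all genes called there was 525, and 243 with DESeq2, 229 without the replicate block, 299 at 4 or more gate genes, and 303 and 309 without 3M-1 and without 3M-2. By cell class 36 values passed, and 31 to 37 when a library was left out; the fit without the replicate block gave 35. In the interaction no member passed under any alternative, and all genes called there numbered 1, or 0 to 66 under the alternatives.

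Between the ages 0 member values passed. It was 3 without a filter on low counts, 2 without Scrublet doublets, and 1 to 5 when a library was left out. It was 3 with the replicate block and 3 with the crossed replicate block, an alternative added after seeing the data. All genes called in an age fit numbered 0 to 4, against up to 128 without the filter, 29 with DESeq2, 78 without Scrublet doublets, 66 with the block and 50 with the crossed block. They numbered 4 to 209 without 3M-1 and 25 to 1312 without 3M-2, 1 to 17 without 6M-1 and up to 24 without 6M-2. The causes were not tested. Leaving out 3 genes of the OPC list, also added later, gave 0 for the ages and 36 by class. In the age comparisons 2 mice at each age, and in astrocytes the few UMIs, limit what could be detected.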
